A study of Mus musculus with 2 samples.

Results

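The genes measured here belong to the pathway that sets meiotic arrest of the mouse oocyte and its end, and they were 10 of the 20658 named genes on a whole-genome oligonucleotide array. They were chosen by name from the natriuretic peptide and cyclic nucleotide pathway, and all 12 of their probes that are not control probes were taken. The granulosa side comprised the peptide gene Nppc and its receptor gene Npr2. The oocyte side comprised Gpr3, Gpr12, Adcy3, Adcy9, Pde3a, Wee2 and Cdc25b, and Impdh2, which serves guanine nucleotide supply, was placed between them.

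RNA came from pieces of ovaries of 2-week-old mice kept in culture for 3 days. On 1 array the ovary pieces had received the tachykinin receptor (TKR) agonists, and on the other they had received the TKR antagonists, each ligand at 1 μM according to the methods of the study. The agonists acted on TACR1, TACR2 and TACR3, the receptors of the peptides substance P, neurokinin A and neurokinin B, and the antagonists blocked the same receptors. GR-64349 was the TACR2 agonist, and GR-94800 and SB218795 were the antagonists of TACR2 and TACR3. The sources used here give neither the strain nor the genotype of these ovary donors, nor the number of ovaries behind each RNA, and no untreated array was analysed. The results section of the study speaks of treatment with all the antagonists, whereas its methods list the ligands with "or". Whether all ligands of a kind were combined for an array is thus not settled by these sources, so that each array is described only by its label. The ovaries were cut lengthwise into matching pieces, and whether pieces of the same ovary went to both arrays is not stated.

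In the antral follicle, granulosa cells release C-type natriuretic peptide, and its receptor on neighbouring granulosa and cumulus cells makes cyclic GMP. Cyclic GMP passes through gap junctions into the oocyte and inhibits the phosphodiesterase PDE3A, so that cyclic AMP made there under the control of constitutively active receptors stays high. Cyclic AMP keeps protein kinase A active, which favours the kinase WEE2 and restrains the phosphatase CDC25B, and the cell cycle kinase CDK1 then stays inactive until ovulation.

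Upstream sequences are shown for the 3 genes that had a single listed transcription start, which was also the outer end of the gene. They are the 250 bases before the transcription start of Nppc (chr1:86670574-86670823, minus strand), Impdh2 (chr9:108560186-108560435, plus strand) and Gpr3 (chr4:133212537-133212786, minus strand). The sequences are those of RefSeq on assembly GRCm38.p6, which listed a start for 9 of the 10 genes, and each is written 5′ to 3′ along the gene. Capitals mark TGACG, the core of the cyclic AMP response element, or its reverse complement CGTCA, and CANNTG, the E-box.
Nppc: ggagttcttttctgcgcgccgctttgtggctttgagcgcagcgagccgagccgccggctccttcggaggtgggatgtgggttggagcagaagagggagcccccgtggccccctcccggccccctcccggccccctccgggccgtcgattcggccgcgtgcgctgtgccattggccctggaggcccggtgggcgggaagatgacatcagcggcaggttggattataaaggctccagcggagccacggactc
Impdh2: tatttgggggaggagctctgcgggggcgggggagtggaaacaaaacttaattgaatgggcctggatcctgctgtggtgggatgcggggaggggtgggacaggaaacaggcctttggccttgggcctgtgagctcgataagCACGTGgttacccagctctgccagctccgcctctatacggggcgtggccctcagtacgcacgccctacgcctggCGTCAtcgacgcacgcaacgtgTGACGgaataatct
Gpr3: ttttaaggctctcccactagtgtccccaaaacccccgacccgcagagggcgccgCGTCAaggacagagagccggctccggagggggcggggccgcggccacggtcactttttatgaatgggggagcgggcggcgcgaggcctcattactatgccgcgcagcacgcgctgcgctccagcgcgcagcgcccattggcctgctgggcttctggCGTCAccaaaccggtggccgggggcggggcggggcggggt
In Impdh2, TGACG on either strand lay 36 and 14 bases before the start and a CANNTG lay 110 bases before it. In Gpr3, TGACG on the reverse strand lay 196 and 40 bases before the start, and none of these letters occurred in the Nppc stretch. Searched on both strands, TGACG was present in 17.8% of 32851 such stretches, CANNTG in 66.2% and the full element TGACGTCA, which contains TGACG, in 1.55%. The GC content was 69.2% for Nppc, 60.8% for Impdh2 and 70.8% for Gpr3, against a median of 52.4% for all stretches, and the number of CG pairs was 24, 17 and 29 against a median of 6. These matches describe the letters of the stretches, and no measurement on the arrays bears on the sites.

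Signals are given below as deposited, in the units of the image analysis software and before scaling, with the error that the software assigned to the spot. For the comparison, log2 signals were centred on the 75th percentile of each array (672 signal units with agonists and 569 with antagonists). A log2 ratio is the scaled agonist value minus the scaled antagonist value, so that a gene with equal raw signals had a negative ratio. Its error combines the spot errors of both arrays. For bright spots the software's error was a nearly fixed share of the signal. Most ratio errors of the members were therefore about 0.20, and they do not measure a spread particular to the gene. The error does not include the spread between ovaries, since each condition had 1 array and no test could be made. The number of arrays limits the precision of every value. In whole ovary tissue, fewer cells of a type and less RNA per cell cannot be told apart.

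Signal was well above background, by the mark of the software, at 65.4% of spots with agonists and at 61.6% with antagonists, and 0 spots were saturated on either array. Ovarian tissue was recognisable by its markers, since 12 of 12 granulosa cell genes and 12 of 12 oocyte genes were well above background on both arrays. The 33073 probes detected in this way on both arrays had a median log2 ratio of -0.10, and their central 95% lay between -0.73 and 1.03.

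Of the 10 meiotic arrest genes, 9 were well above background on both arrays, and Gpr12 on neither. Over all probes, 33073 of 55674 were well above background on both arrays. None of the 9, that is 0 genes, was at least 2-fold higher with agonists, where 2.69% of all probes were, and 0 were at least 2-fold lower, where 0.705% of all probes were. At 1.5-fold the counts were again 0 and 0, beside 6.95% and 4.9% of all probes. The log2 ratios lay between -0.48 and 0.13 with a median of -0.19, and 3 were above 0 and 6 below. Relative to the median of all probes the division was the same, 3 above and 6 below, and all 9 lay within 2 errors of that median. Which of the genes lay above 0 depended in part on the scaling, as given with each gene, and the order of the 9 ratios is only as firm as their errors.

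**Figure D1:**
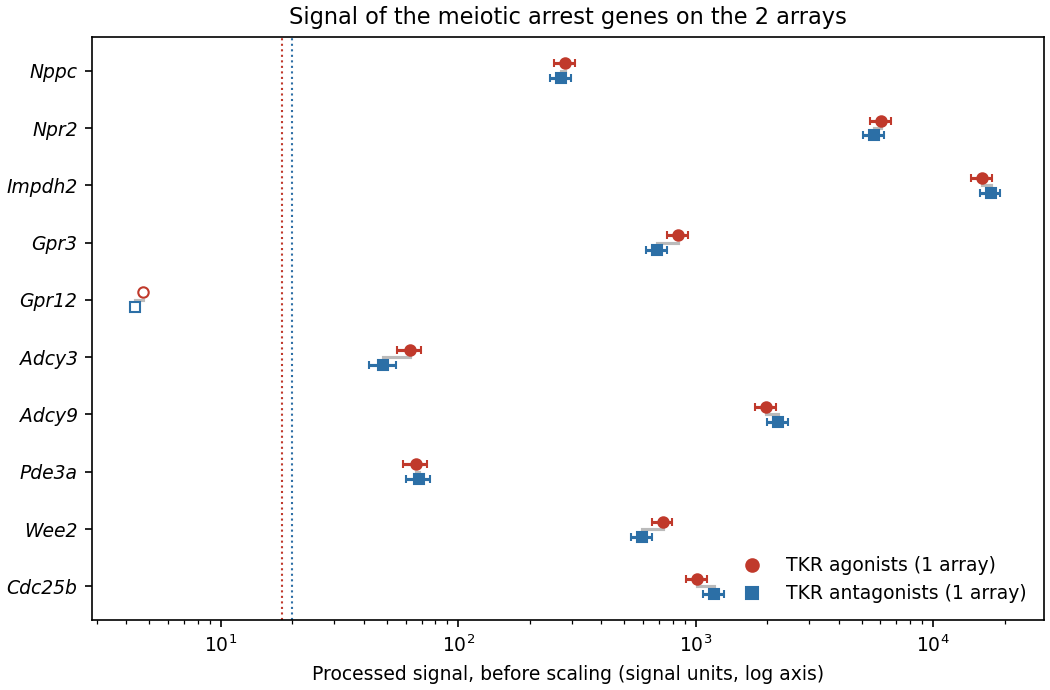
Processed signal of each of the 10 genes before scaling, in signal units on a log axis, with agonists (circles) and antagonists (squares), 1 array each. Bars are the error of the spot given by the software, open symbols are probes not well above background, and dotted lines are the lowest signal of a probe well above background on each array (18.1 and 19.9). The pairs of symbols lie close together for every gene, and Gpr12 lies left of both lines.

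On the granulosa side, Nppc encodes C-type natriuretic peptide, the ligand. Its probe (NM_010933) gave 280.5 ± 28.4 signal units with agonists and 271 ± 27.5 with antagonists. The ratio after scaling was -0.19 ± 0.21, within 1 error of 0 and at the 35.3rd percentile of all probes. The raw signal was slightly higher with agonists and the scaled value slightly lower, and the ratio ranged from -0.25 with scaling on the array median to 0.08 with scaling on spike-in controls, being above 0 also without scaling (0.05).

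Npr2 encodes the guanylyl cyclase receptor of this peptide. Its probe (NM_173788) gave 6042 ± 604 signal units with agonists and 5641 ± 564 with antagonists. The ratio was -0.14 ± 0.20, at the 43.1st percentile, and it was above 0 without scaling (0.10), with spike-in scaling (0.13) and, by less than 0.01, with loess. Ligand and receptor therefore had nearly equal ratios, the receptor minus the ligand being 0.05 ± 0.29.

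The median of granulosa cell markers lay lower than this pair. Over 12 of these genes it was -0.47, with 10 below 0, and their summed scaled signal was 146 with agonists and 202 with antagonists. Amh, which encodes anti-Müllerian hormone, had a ratio of -0.67 ± 0.21, and Fshr, the follicle-stimulating hormone receptor, of -0.73 ± 0.21. The highest were Foxl2 (0.32, but -0.37 at its other probe) and Cyp19a1 (0.37), the latter encoding aromatase. Inhba (-0.14) and Kitl (-0.13) also lay above Nppc and Npr2, by less than their errors. The part of granulosa cell content in the ratios of Nppc and Npr2 was not tested.

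Impdh2 encodes inosine monophosphate dehydrogenase, which commits purines to guanine nucleotides and hence to substrate for cyclic GMP. It had 2 probes for the transcript NM_011830, and both were lower with agonists. The first gave 16108 ± 1611 signal units with agonists and 17468 ± 1747 with antagonists, a ratio of -0.36 ± 0.20. The second gave 11640.3 ± 1164 and 12974 ± 1297, a ratio of -0.40 ± 0.20. The gene stayed below 0 under every scaling tried (-0.41 to -0.08), and its probes stood at the 15.8th and 12.8th percentiles of all probes.

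On the oocyte side, Gpr3 encodes the constitutively active receptor that, through the stimulatory G protein, maintains cyclic AMP in the mouse oocyte. Its probe (NM_008154) gave 844 ± 84.5 signal units with agonists and 689 ± 69.0 with antagonists. The ratio was 0.05 ± 0.20, at the 68.7th percentile, and it was 0.33 with spike-in scaling and just below 0 with scaling on the array median. Gpr3 exceeded Nppc by 0.24 ± 0.29 in log2 ratio, less than the error of the difference.

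Gpr12 encodes a close relative of Gpr3. Its probe (NM_001010941) was printed at 10 spots on each array, the only one of the 12 probes printed more than once. With agonists the spots lay between 3.76 and 19.0 signal units with a median of 4.23, and 8 of them were under 10. With antagonists they lay between 3.91 and 7.75 with a median of 4.43, and all 10 were under 10. A single spot with agonists, at 19.0, was marked well above background, and the software also marked it as an outlier. The next highest spot, at 14.6, was not, and 0 of 10 spots were well above background with antagonists. The software marked 2 of the antagonist spots as outliers, among them the highest, at 7.75. The spots of the arrays overlapped, and no ratio is given for this gene.

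**Figure D2:**
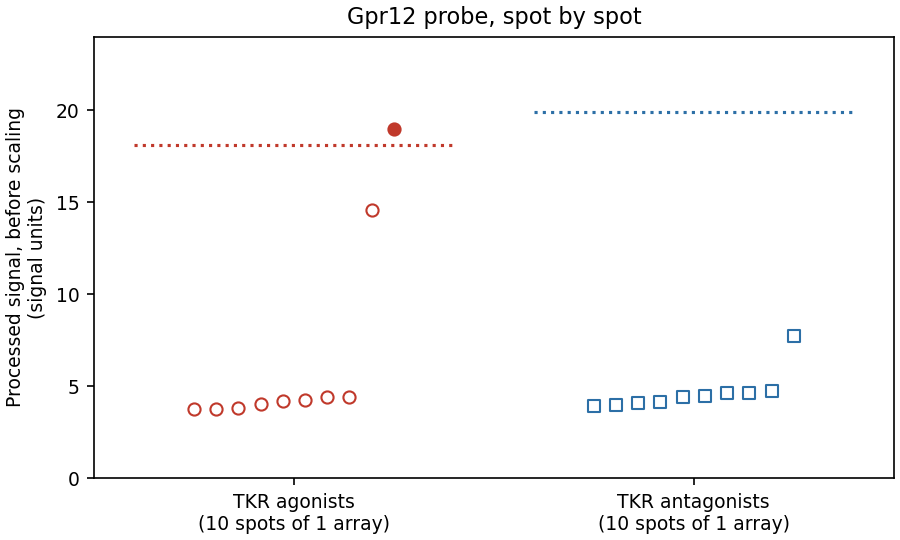
Processed signal of the 10 spots of the Gpr12 probe on each array before scaling, in signal units, ordered by signal. The filled symbol is the spot marked well above background and dotted lines are the lowest signal of a probe well above background on that array. Apart from the agonist spots at 14.6 and 19.0, the spots of both arrays lie between 3.76 and 7.75.

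Adcy3 and Adcy9 encode adenylyl cyclases, which make cyclic AMP. The Adcy3 probe (NM_138305) gave 62.3 ± 7.35 signal units with agonists and 48.3 ± 6.32 with antagonists, with a ratio of 0.13 ± 0.25. This was the highest ratio of the 9 genes, at the 75.3rd percentile. However, the ratio turned to -0.22 when the background was corrected by the normexp model. That model adds an offset of 50 units, which weighs most on dim probes. The Adcy9 probe (NM_009624) gave 1976 ± 198 with agonists and 2228 ± 223 with antagonists, with a ratio of -0.42 ± 0.20 at the 11.6th percentile. Adcy9 stayed below 0 under every scaling tried (-0.47 to -0.14), and, with Cdc25b, it was one of 2 genes more than 2 errors from 0. This distance held for Adcy9 in 6 and for Cdc25b in 8 of 13 alternatives. Those for spot and probe summaries and filters could not change these values, since each gene had 1 detected probe at 1 spot. Among the others, the distance held for Adcy9 only with scaling on the array median. For Cdc25b it held there, with quantile normalization and with normexp. It held for neither without scaling, on the spike-in scale, with loess, with the percentile over detected probes or in the authors' summary table. The cyclases differed from each other by 0.54 ± 0.33.

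Pde3a encodes the phosphodiesterase that degrades cyclic AMP in the oocyte and is inhibited by cyclic GMP. Of its 2 probes for NM_018779, one gave 66.1 ± 7.62 signal units with agonists and 68.0 ± 7.95 with antagonists. The ratio was -0.28 ± 0.24 at the 23.5th percentile, and with spike-in scaling it was -0.01. The other probe was not well above background on either array, at 16.6 ± 4.86 and 12.5 ± 4.86, so that the gene rests on 1 probe of low signal. Gpr3 exceeded Pde3a by 0.33 ± 0.31.

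Wee2 and Cdc25b act on CDK1 in opposite directions, the kinase WEE2 inhibiting it and the phosphatase CDC25B activating it. The Wee2 probe (NM_201370) gave 724 ± 72.6 signal units with agonists and 593 ± 59.5 with antagonists, a ratio of 0.05 ± 0.20 at the 68.3rd percentile that was -0.01 with scaling on the array median and 0.32 with spike-in scaling. The Cdc25b probe (NM_023117) gave 1010.4 ± 101 with agonists and 1195 ± 119.5 with antagonists. Its ratio of -0.48 ± 0.20 was the lowest of the 9 genes, at the 8.09th percentile, and stayed below 0 under every scaling (-0.54 to -0.21). Wee2 exceeded Cdc25b by 0.53 ± 0.29, whereas it lay within 0.01 of Gpr3, another gene whose RNA is abundant in the oocyte.

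**Figure D3:**
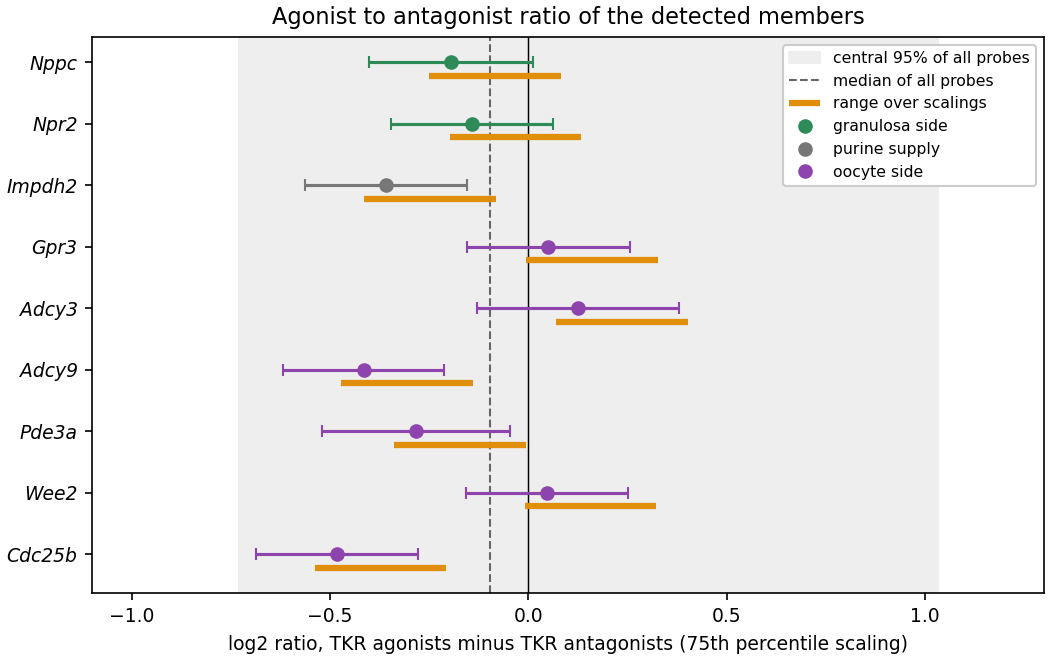
Log2 ratio of agonists to antagonists for the 9 genes well above background on both arrays, with bars of 1 error from the spot errors of the software. Orange lines give the range over the scalings between arrays, the grey band the central 95% of all probes and the dashed line their median of -0.10. All 9 points lie inside the band, and Cdc25b (-0.48) and Adcy9 (-0.42) lie lowest.

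The medians of the sides lay close together. The median log2 ratio was -0.17 for the 2 granulosa side genes and -0.12 for the 6 detected oocyte side genes, a difference of 0.05 and less than the error of any single gene. Within the oocyte side the ratios spread from -0.48 to 0.13, and the extremes, Adcy3 and Cdc25b, were 0.61 ± 0.33 apart. For comparison, 12 oocyte markers had a median of 0.11 and a range from -0.13 (Zp3) to 0.59 (Figla), and their summed scaled signals were 378 with agonists and 382 with antagonists. Gpr3, Adcy3 and Wee2 lay inside that range, and Pde3a, Adcy9 and Cdc25b lay below it. These 3 genes and Adcy3 are also expressed in other ovarian cells, and the part of those cells was not tested.

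The probes also allow a view of the error itself. Among 284 probes that were printed at 10 spots and were well above background at all of them, the median SD of the log2 ratio between spots was 0.07, smaller than the error of 0.20 to 0.25 assigned to the ratios of the meiotic arrest genes. Both quantities describe spots of a pair of arrays.

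The other genes of the pathway were taken as 5 lists with 69 genes. Of these, 64 were detected on both arrays and had a median log2 ratio of -0.08, 2 were at least 2-fold higher with agonists (Adcy4 and Pde7b) and 0 at least 2-fold lower. The share of 3.13% higher was near the 2.69% of all probes, and 0.705% of all probes were lower. The count depended on the processing, and it was 7 of 64 (10.9%) without scaling and on the spike-in scale, where 4.53% and 4.91% of all probes passed, and 1 with normexp. The genes added without scaling were Gda, Npr1, Npr3, Pde2a and Prkar1b. Nppb was well above background with agonists only, and 4 genes (Adcy1, Adcy8, Adcy10 and Pde11a) on neither array. Genes with the highest mean signal of each list, and those 2-fold apart or detected on 1 array, were named by rule, and the others named below were chosen after their values were seen.

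Among natriuretic peptide, guanylyl cyclase and cyclic GMP kinase genes other than Nppc and Npr2, the median was 0.61 over 7 of 8 genes, the highest of the 5 lists, and it stayed above 0 under every alternative (0.41 to 0.88). Npr1, the receptor of the atrial peptide, gave 65.9 signal units with agonists and 31.4 with antagonists (0.83 ± 0.29), but with normexp its ratio was 0.15. Npr3, the receptor that clears natriuretic peptides, gave 220.4 and 99.1 (0.91 ± 0.21). The soluble guanylyl cyclase subunit Gucy1a1 had a ratio of 0.65 ± 0.20 and its partner Gucy1b1 of -0.12 ± 0.20. The cyclic GMP-dependent kinases Prkg1 and Prkg2 had ratios of 0.61 ± 0.22 and 0.57 ± 0.21. The atrial peptide gene Nppa lay at -0.27. For Nppb, the brain-type peptide, signals of 32.1 and 18.2 gave a bound of at least 1.37-fold higher with agonists. A bound of 2-fold was reached by 9.6% of the probes detected with agonists only, and by 28.1% of those detected with antagonists only, a class that held 0 of the 69 genes. Nppc and Npr2 thus lay below the detected genes of this list other than Nppa, although Gucy1b1 was within 1 error of both.

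**Figure D4:**
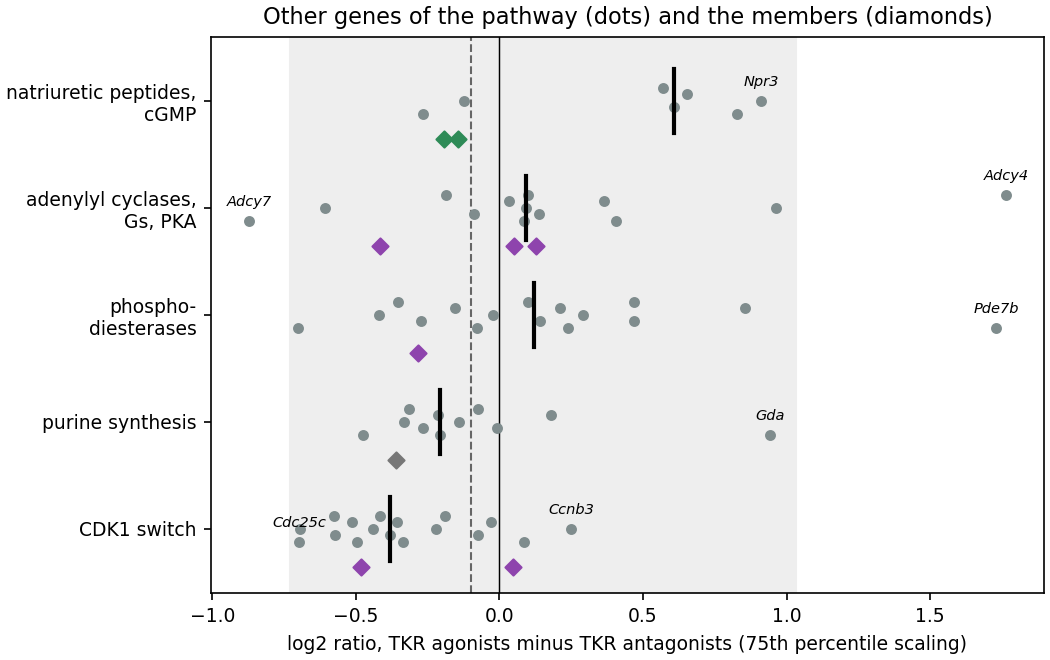
Log2 ratio of agonists to antagonists for the other genes of the pathway (dots) in 5 lists, with the list median (black bars) and the meiotic arrest genes (diamonds). The grey band is the central 95% of all probes and the dashed line their median. The natriuretic list lies mostly right of 0 (median 0.61) and the CDK1 list left of it (median -0.38), with Adcy4 and Pde7b outside the band.

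Among adenylyl cyclases, the stimulatory G protein and subunits of protein kinase A, the median was 0.09 over 13 of 16 genes and -0.09 at the lowest under the alternatives. Adcy4 gave 698 signal units with agonists and 174 with antagonists, a ratio of 1.76 ± 0.21 that stayed at or above 1.36. Adcy7 had the lowest ratio of the 64 genes, -0.87 ± 0.20. Gnas, the stimulatory G protein, had a ratio of 0.09 and -0.29 at its other probe, and the kinase subunit Prkar2b of 0.03 and -0.35. Gpr6, the third receptor of the Gpr3 family, had a ratio of -0.09 ± 0.21. The cyclases thus spread from -0.87 to 1.76, a range that enclosed Adcy3 and Adcy9.

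Among phosphodiesterases other than Pde3a, the median was 0.12 over 16 of 17 genes, and -0.01 at the lowest under the alternatives. Pde7b, specific for cyclic AMP, gave 145 signal units with agonists and 37.0 with antagonists, a ratio of 1.73 ± 0.28. Its other probe gave 1.47, and with normexp the ratio was 0.69. Pde4c and Pde2a had ratios of -0.27 and 0.86, and Pde3b, the closest relative of Pde3a, of 0.29 ± 0.20.

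Among 11 purine synthesis and salvage genes the median was -0.21 and 9 were below 0, although the median was above 0 without scaling and with spike-in scaling (0.07). Impdh1, the second form of inosine monophosphate dehydrogenase, had a ratio of -0.01 ± 0.20 beside the -0.36 of Impdh2. Hprt, of the salvage route, had a ratio of -0.26 and Paics, of the de novo route, of -0.07. Gda, which removes guanine, was the highest at 0.94 ± 0.20.

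Among 17 genes of the CDK1 switch the median was -0.38, and 15 were below 0. The list stayed below 0 under every alternative (-0.44 to -0.11). The cyclin Ccnb1 had a ratio of -0.36, with its other probes at -0.21 and -0.20, and Ensa, an inhibitor of the opposing phosphatase, of -0.34, with its other probe at -0.04. Wee1, the somatic relative of Wee2, had a ratio of -0.57 ± 0.20, and the relatives of Cdc25b, Cdc25a and Cdc25c, of -0.19 ± 0.20 and -0.70 ± 0.22. The oocyte kinase gene Mos had a ratio of -0.07 ± 0.20. Cdc25b thus lay with most of this list. Wee2 and Mos lay closer to 0, as did Arpp19 (-0.03) and Cdc14b (0.09, and 0.27 at its other probe). Ccnb3 was the highest of the list at 0.25.

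Marker lists of ovarian cells and of proliferation also differed between the arrays. The 8 proliferation genes were all below 0, with a median of -0.53 and summed scaled signals of 53.6 with agonists and 73.3 with antagonists. Medians were above 0 for markers of stroma (0.45, 5 of 6 genes above 0), endothelium (0.48, 4 of 5), smooth muscle (0.71, 4 of 4), macrophages (0.78, 6 of 6) and surface epithelium (1.01, 6 of 6), and these medians stayed above 0 under every alternative. The 5 detected theca markers had a median of -0.40 with 2 above 0 (Cyp11a1, 0.79, and Hsd3b1, 0.21), their summed scaled signals were 85.7 and 84.9, and averaging all probes of a gene moved the median to -0.19. The summed scaled signals of surface epithelium were 37.1 and 17.4 and those of smooth muscle 37.8 and 23.2. Among theca markers, Lhcgr was well above background on neither array. The part of these cells in the ratios of the pathway genes was not tested.

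**Figure D5:**
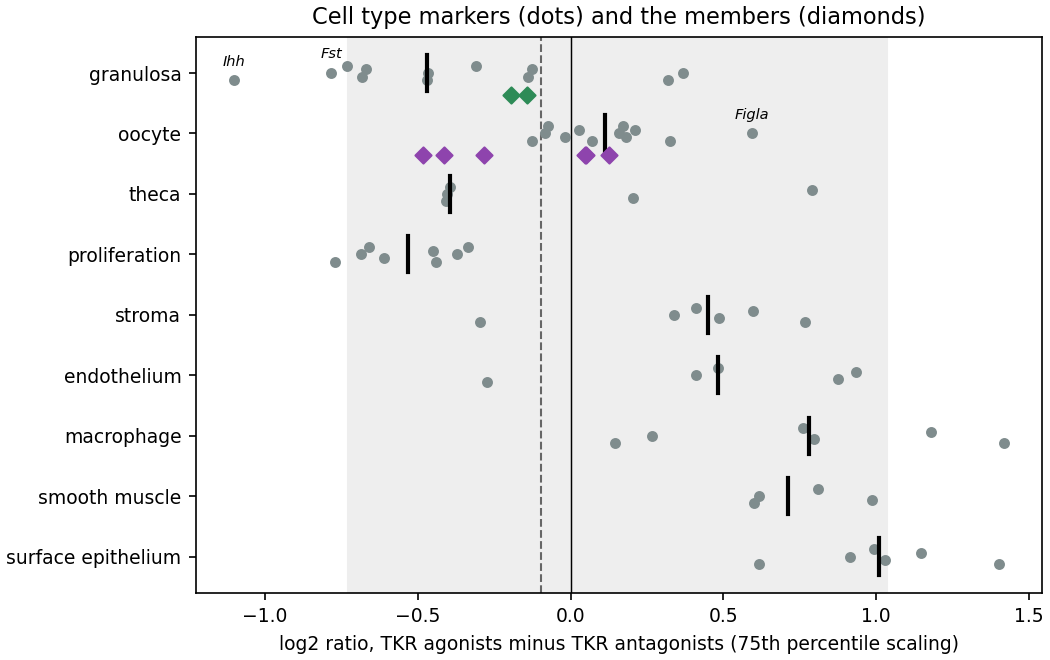
Log2 ratio of agonists to antagonists for markers of ovarian cell types and of proliferation (dots), with list medians (black bars) and, on the granulosa and oocyte lines, the meiotic arrest genes (diamonds). The grey band is the central 95% of all probes and the dashed line their median. Nppc and Npr2 lie right of the granulosa median (-0.47), and the oocyte side genes lie from -0.48 to 0.13 around and below the oocyte markers.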

How the data were processed

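Labelled RNA of 2 groups, 1 array each on the same slide, was measured on single-colour Agilent arrays (design build mm9). The authors had the spots read with Agilent Feature Extraction 10.10.1.1 and deposited the background-corrected intensity of each spot, unscaled, with its error and other marks (well above background, saturated, outlier). The authors also deposited a summary table, which equalled these intensities times a constant for each array.

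Control spots were left out, and log2 intensities were reduced by the 75th percentile of all other spots of the array. Spots were then averaged per probe without the outlier spots (55674 probes). A probe counted as detected when more than 50% of its spots carried the mark for signal well above background. Of the probes, 27230 were named through RefSeq transcripts (GRCm38.p6, for names only). A gene was represented by its probe with the highest mean signal. A bound for a gene detected on 1 array divides its value by the dim one or, if this is higher, by the lowest detected signal of the dim array.

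The members and lists were chosen with earlier results of these data known. Named were all 10 members and, from each list, genes at least 2-fold apart, genes detected on 1 array and the 2 with the highest mean signal. With 1 array per group no test was made, and 0 columns of values were left unused. Alternatives covered scaling, normexp (offset 50), loess (span 0.3), spot and probe summaries and filters. The calculation was tested on simulated data with planted changes larger than any ratio of the members, so the check does not bear on differences of their size. Python 3.11.15, numpy 2.4.6, pandas 2.3.3, matplotlib 3.10.9, R 4.3.3 and limma 3.58.1 were used.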

Additional observations from a re-analysis of the deposited data

How the results depend on the processing

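The scaling shifted all ratios by -0.24 on the log2 scale against unscaled values, in which the median of all probes was 0.14, and it was 0.18 on the spike-in scale. The median over the 9 detected meiotic arrest genes was -0.19 as reported, 0.048 with unscaled signals and 0.082 on the spike-in scale. Under the other alternatives it stayed below 0, at -0.25 at the lowest. With each scaling by 1 constant per array, with normexp and with the other spot summaries, it lay 0.10 below the median of all probes. Without a filter on dim probes, which added Gpr12, it was -0.17. The counts of genes at least 2-fold higher or lower were 0 throughout, and 9 genes were detected also by the criterion of a signal significantly different from local background. Of 117 values of single genes under the alternatives, 109 had the sign reported and 8 the opposite sign, all among Nppc, Npr2, Gpr3, Adcy3 and Wee2. Many of the 109 only repeat the reported value, because spot and probe summaries and filters cannot alter a gene with 1 detected probe at 1 spot. Of these alternatives, only averaging the probes of Impdh2 changed a value of a single gene (-0.38). No value lay outside -0.54 to 0.40. Of the other pathway genes, 2 were at least 2-fold higher as reported, and in comparisons chosen after seeing the data 7 without scaling and on the spike-in scale, 5 with loess and in the authors' summary table, 4 with the percentile over detected probes and 1 with normexp; 0 were at least 2-fold lower, and 1 without a filter on dim probes. No paired analysis was possible because a single array stood for each ligand group and the arrays are not stated to hold pieces of the same ovaries. Signal over background limits Adcy3 and Pde3a, whose signals were under 70 units, and Gpr12, for which no ratio was obtained.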
